A study of Mus musculus with 8 samples.

Results

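The genes described here are 40 members of the protein folding machinery of the endoplasmic reticulum (ER) and of the unfolded protein response, taken by name from the 40840 genes in the tables. They were named for their known roles, with earlier results of these data known, and all 40 were among the 19963 genes tested. RNA was sequenced from 8 cultures of primary myofibroblastic hepatic stellate cells (pMF-HSCs), the collagen-producing cells of the injured liver. The cells came from livers of male wild-type C57BL/6J mice aged 15 to 18 weeks and were kept on plastic for 7 days in DMEM with 5% fetal bovine serum. Cultures then received vehicle (DMSO) in the control group (n = 4) or 50 µM OSMI-1 in the OGTi group (n = 4) for 24 h. OSMI-1 inhibits O-GlcNAc transferase, the enzyme that attaches the sugar O-GlcNAc to nuclear and cytosolic proteins. The methods describe 4 independent experiments with treated and control cells paired by number, with a single inhibitor at a single dose. Whether an experiment used cells of a single mouse or a pool is not given in the sources used here.

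The ER is where secreted and membrane proteins, such as the collagens of stellate cells, are folded, joined by disulfide bonds and given their first sugars. When unfolded proteins build up there, the membrane sensors IRE1α, PERK and ATF6 are released from the chaperone BiP, and they raise the output of chaperones, folding enzymes and the degradation machinery (ERAD) while PERK lowers protein synthesis. IRE1α acts by splicing the Xbp1 message, a step that gene-level tables do not show, and ATF6 acts after it is cut in the Golgi.

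XBP1 and ATF6 act on short promoter elements. The ER stress response element (ERSE) is CCAAT, then 9 bases, then CCACG, and ERSE-II is ATTGG, then 1 base, then CCACG. Both were searched on both strands of the RefSeq promoter windows of the mouse build GRCm38.p6, which run from 250 bases before to 50 bases after each start site. Of the 40 genes, 34 had a window, and Atf6, Hyou1, Manf, Derl1, Sec61a1 and Ssr2 were not matched. An ERSE stood in 10 of the 34 (29.4%), against 0.137% of the 27025 genes in the table, and an ERSE-II stood in Dnajb11 and Herpud1 (5.88%), against 0.0444%. ERSE was first defined in promoters of this class of gene, Hspa5, Hsp90b1 and Calr among them, so its high share here is a description. The core of the unfolded protein response element, TGACGTGG, was in none of the 38 windows of these 34 genes and in 0.714% of all genes, which says only that these letters were not in these windows. Below are the 200 bases before the start site of the genes that were both called higher in OGTi and held a match, with the match in capitals. They are shown so that each match can be read in its promoter beside the values of the gene given further on.
Herpud1: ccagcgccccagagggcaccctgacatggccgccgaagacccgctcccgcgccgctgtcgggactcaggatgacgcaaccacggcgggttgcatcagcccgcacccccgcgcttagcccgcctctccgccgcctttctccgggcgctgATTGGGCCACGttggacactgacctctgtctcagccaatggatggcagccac
Hspa5: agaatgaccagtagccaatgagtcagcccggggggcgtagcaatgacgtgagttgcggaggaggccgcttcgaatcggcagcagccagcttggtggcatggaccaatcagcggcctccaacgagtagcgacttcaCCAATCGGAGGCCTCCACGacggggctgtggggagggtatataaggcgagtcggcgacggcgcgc
Derl3: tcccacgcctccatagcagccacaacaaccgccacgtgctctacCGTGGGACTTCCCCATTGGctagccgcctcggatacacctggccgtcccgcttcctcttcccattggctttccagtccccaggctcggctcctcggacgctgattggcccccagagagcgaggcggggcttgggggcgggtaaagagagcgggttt
Calr: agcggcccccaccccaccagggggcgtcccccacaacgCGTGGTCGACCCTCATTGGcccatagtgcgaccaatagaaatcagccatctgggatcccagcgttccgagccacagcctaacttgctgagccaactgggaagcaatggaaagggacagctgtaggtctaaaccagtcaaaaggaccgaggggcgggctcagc
The Herpud1 stretch is chr8:94386229-94386428 on the plus strand, with its ERSE-II at bases -52 to -42 from the start site. The Hspa5 stretch is chr2:34771890-34772089 on the plus strand, with its ERSE at -65 to -47. The Derl3 stretch is chr10:75893198-75893397 on the plus strand, with an ERSE on the opposite strand at -156 to -138. The Calr stretch is chr8:84846932-84847131 on the minus strand, with an ERSE on the opposite strand at -162 to -144. The other 8 genes with a match were Hsp90b1, which held 2 ERSE, and Dnajb11, Dnajc3, Creld2, Canx, Pdia6, Ero1b and Syvn1. The remaining called genes, Ern1 and Dnajb9, had no match.

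**Figure D1:**
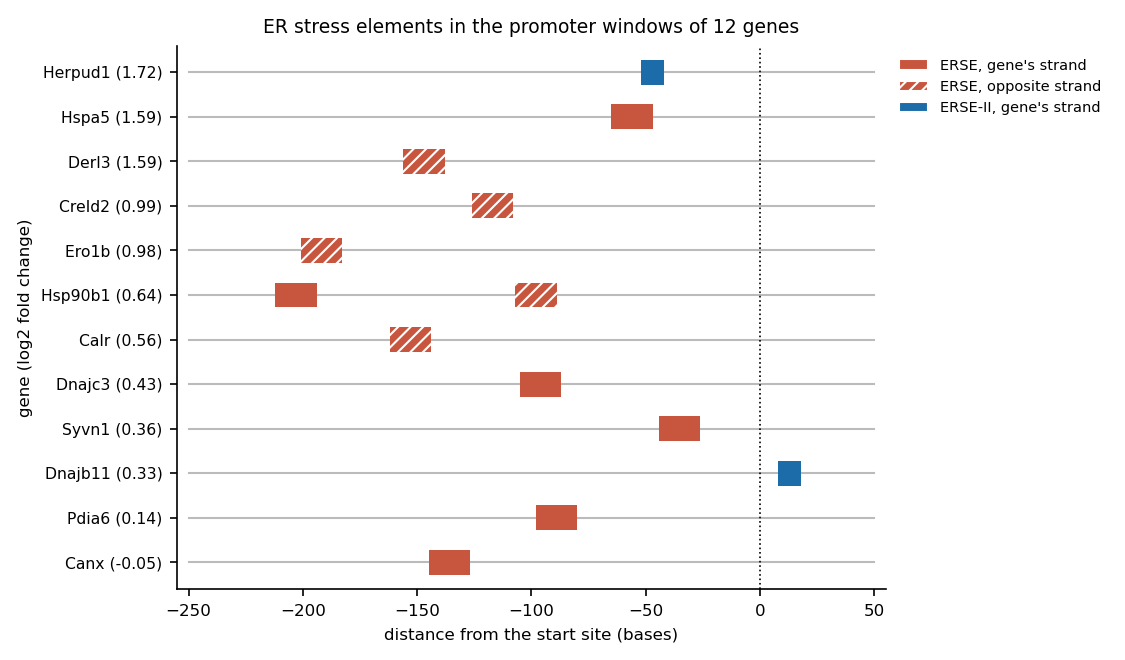
Places of ERSE (red) and ERSE-II (blue) in the promoter windows of the 12 genes with a match, as distance in bases from the start site. Genes are ordered by their log2 fold change in OGTi, from 1.72 for Herpud1 to -0.05 for Canx, and the matches ran from -212 in Hsp90b1 to 18 in Dnajb11.

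Libraries held between 30068876 and 37372420 expected counts, and each of the 40 genes had at least 157 in every library. Several libraries stood apart. A count was found for 23746 genes in OGTi replicate 4, while the other libraries had between 19035 and 20293. Control replicate 4 was at or below 0.5 times the lowest other control for Xbp1, Dnajc3, Creld2, Ero1a and Ero1b. OGTi replicate 1 was at or below 0.5 times the lowest other OGTi library for Ern1, Hyou1, Dnajc10, Sel1l and Edem3, and in it the 20 longer of the 40 genes lay a median of -0.90 on the log2 scale from the other OGTi libraries, against 0.19 for the 20 shorter ones. These libraries held the lowest of the 8 values for 12 genes (OGTi replicate 1) and 10 genes (control replicate 4). Stellate and myofibroblast markers were all detected, with a summed TPM (transcript abundance scaled for gene length and depth) of 3641 to 6669 in control and 3039 to 7155 in OGTi. Of these 11 markers, Lrat (log2 fold change -1.78) and Pdgfrb (-1.68) were called lower. Hepatocyte, endothelial, and plasma and B cell marker sums stayed at or below 1.69, 2.78 and 0.94 TPM, with Hnf4a at 0 throughout. At these low levels Cyp2e1 was called higher (3.98), and Tek (-3.36) and Lyve1 (-3.17) lower. The macrophage sum was 49.8 to 174 in control and 88.4 to 228 in OGTi. Of its 7 markers 1 was called, Cd68, which was higher (1.50), and 4 lay below 0, with a list median of -0.03. The cholangiocyte sum, mostly Spp1, was 307 to 654 in control and 128 to 563 in OGTi, with Sox9 called higher (3.03) and Krt19 lower (-0.66). In such bulk samples, fewer cells of a type and less RNA per cell cannot be told apart, and the part of cell makeup in the changes given here was not tested.

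Of the 40 genes, 6 were called higher in OGTi and 0 lower by edgeR (adjusted p at or under 0.05). They were Hspa5, Dnajb9, Herpud1, Derl3, Ern1 and Calr, so the calls fell on BiP and one of its co-chaperones, 2 of the 10 ERAD genes, a sensor and a lectin chaperone. Over all genes tested, 18.4% were called, 8.13% higher and 10.2% lower, so the share of the 40 called higher (15%) was above the background and the share called lower was under it. In 12 of 16 alternative settings the share called higher was above that setting's background. All settings used these same 8 libraries or a part of them, so they are not separate support. Some margins were small, as without the replicate block (10% against 7.31%), without replicate 3 (7.5% against 4.38%) or with filterByExpr (15% against 11.8%). The share called higher was under the background without replicate 4 (2.5% against 4.77%), at an adjusted p threshold of 0.01 (2.5% against 3.76%) and with limma on log2(TPM + 1) (2.5% against 5.99%) or log2(TPM + 0.1) (5% against 6.19%). The median log2 fold change of the 40 was 0.35, against 0.01 over all genes tested, with 27 above 0 and 13 below. Without adjustment, 13 were higher and 4 lower at a p under 0.05, against 14.3% and 17.5% of all genes tested. Of the 40, 10 were higher in all 4 pairs and 5 lower in all 4, against 19.4% and 21.5% of all genes tested. The values of the groups did not overlap for 10 of them, against 23.5% of all genes. DESeq2 called 10 higher and 2 lower, against 11.9% and 12.4% of all genes.

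The split by direction differed between fits. Among all called genes 44.3% were higher with TMM scaling and 30.1% with library totals alone, which changes the scaling only. It was 25.7% with limma on log2(TPM + 1), a fit in which the test, the unit and the scaling all differ. The median of all genes moved to -0.19 with library totals, -0.10 on log2(TPM + 1) and 0.13 with upper-quartile scaling. Of the 40 genes, 4 were higher and 3 lower with library totals, and 1 was higher (Dnajb9) and 5 lower (Atf6b, Pdia5, Fkbp11, Sec61b and Ssr1) on log2(TPM + 1). The shares lower, 7.5% and 12.5% of the 40, were under the 14.6% and 17.3% of all genes in these fits. The shares higher were 10% against 6.29% with library totals and 2.5% against 5.99% on log2(TPM + 1). The median of the 40 was 0.16 and 0.03 in these fits, still above that of all genes.

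**Figure D2:**
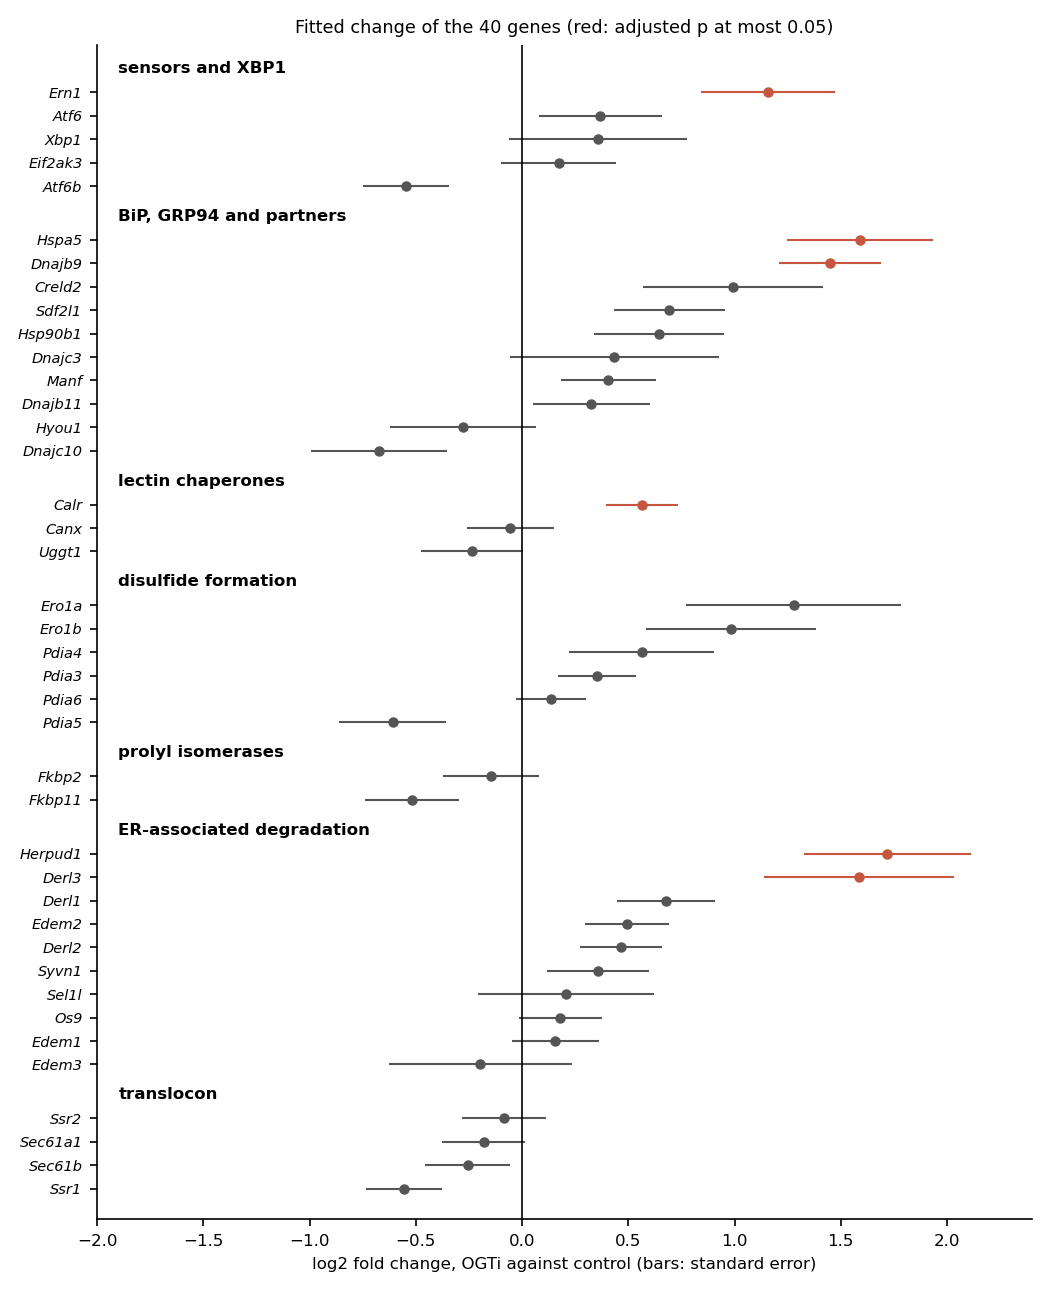
Fitted log2 fold changes of the 40 genes in OGTi against control with their standard errors, grouped by role, with the 6 called genes in red. The called genes run from 0.56 (Calr) to 1.72 (Herpud1), and the translocon and prolyl isomerase genes all lie below 0.

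Among the sensors, Ern1, which encodes IRE1α, was higher in OGTi. Its scaled counts were 837, 744, 913 and 846 in control replicates 1 to 4 and 796, 1801, 2573 and 3098 in the OGTi replicates. The control values were close together, and the OGTi values of replicates 2 to 4 were all above them, whereas OGTi replicate 1 was inside the control range. The log2 fold change was 1.16 ± 0.31 (SE), a 2.23-fold change, with an adjusted p of 0.0290 in edgeR, and it was higher in 3 of 4 pairs. The call was lost without replicate 2 (1.14, adjusted p 0.0956), replicate 3 (1.04, 0.123) or replicate 4 (0.92, 0.132). It was also lost with library totals (0.96, 0.0505) and on log2(TPM + 1) (0.76, 0.175), and adjusted p ran from 0.00125 to 0.175 among the alternatives. The gene lies at chr11:106283818-106378686 on the minus strand of GRCm39 in the GENCODE M39 annotation, the source of the coordinates of the whole genes given here.

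The other sensor genes did not pass. Eif2ak3, which encodes PERK, had scaled counts of 247, 287, 266 and 216 in control and 162, 353, 418 and 270 in OGTi (0.17 ± 0.27, adjusted p 0.718). Atf6 had 3989, 2625, 2949 and 4676 in control and 2277, 3984, 5810 and 7325 in OGTi (0.37, adjusted p 0.431). Both groups overlapped for each gene, and in each the lowest of the 8 values was OGTi replicate 1. Without replicate 1, Atf6 reached 0.74 (adjusted p 0.0264). Atf6b, the relative of Atf6, differed in sign, with 2048 to 2395 in control and 1235 to 1724 in OGTi, no overlap, and lower values in all 4 pairs, but it missed the threshold (-0.55 ± 0.20, adjusted p 0.0897). It was called lower by DESeq2 (adjusted p 0.0465), with library totals (0.0336) and on TPM. Xbp1, the transcription factor made active by splicing, had 9208, 9248, 12098 and 1599 in control and 9989, 6259, 10117 and 8232 in OGTi. Its groups overlapped and its positive value (0.36, adjusted p 0.619) rested on control replicate 4, the lowest library, since without replicate 4 the value was -0.22 (adjusted p 0.570).

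The chaperone BiP, encoded by Hspa5, had the most abundant message of the 40 genes in every library and was higher in OGTi. Its scaled counts were 348520, 197812, 191159 and 258153 in control and 507644, 360806, 1341147 and 1156849 in OGTi. The groups did not overlap, and OGTi replicates 3 and 4 were far above OGTi replicates 1 and 2. The mean was 248911 ± 72924 in control and 841612 ± 480145 in OGTi (SD, n = 4), and the ratios within pairs were 1.46, 1.82, 7.02 and 4.48. The fitted log2 fold change was 1.59 ± 0.34 (3.01-fold), with an adjusted p of 0.0102. Hspa5 took 0.406% to 0.715% of all TPM in control and 0.688% to 2.20% in OGTi, so in TPM the groups overlapped. In pair 1 Hspa5 was at 7154 TPM in control and 7210 in OGTi. It ranked between 3 and 18 among all genes by TPM in control libraries and between 2 and 8 in OGTi libraries. The call was lost without replicate 4 (1.39, adjusted p 0.0684) and on log2(TPM + 1) (1.27, 0.0632), and the lowest and highest adjusted p of the alternatives were 5.01e-09 and 0.0684. Hspa5 lies at chr2:34661982-34668880 on the plus strand.

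Dnajb9, also known as ERdj4, is a co-chaperone that binds BiP and IRE1α, and it was the gene of the 40 with the lowest adjusted p. Scaled counts were 7972, 5439, 5802 and 7957 in control and 14841, 11903, 26819 and 23569 in OGTi. Every OGTi value was above every control value, and replicates 3 and 4 were again the highest. The log2 fold change was 1.45 ± 0.24 (2.73-fold, adjusted p 0.00311). Dnajb9 was called in each of the 15 alternative fits, with values from 1.12 to 1.73, and was the single gene of the 40 called with a threshold of 0.01 or without replicate 4. It lies at chr12:44252341-44257171 on the minus strand.

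The other 8 genes that act with BiP and GRP94 did not pass. Hsp90b1, which encodes GRP94, had scaled counts of 149239, 107749, 93504 and 135710 in control and 98356, 145303, 263451 and 312860 in OGTi. Replicates 3 and 4 of OGTi were above all controls, OGTi replicate 1 was near the bottom of the control range, and the fitted value was 0.64 ± 0.31 (adjusted p 0.181). Without replicate 1 it was 1.05 (adjusted p 0.0179). Sdf2l1, a partner of the ER co-chaperones, was higher in all 4 pairs (0.69, adjusted p 0.0957). Creld2, an ER stress-induced secreted protein, had the largest value among those that missed (0.99, adjusted p 0.138), and its control values ran from 4273 in replicate 4 to 24388 in replicate 1. Without replicate 4 Creld2 was at 0.46 (adjusted p 0.416). Manf, a secreted protein that binds BiP, was at 0.41, and the co-chaperones Dnajb11 (ERdj3) and Dnajc3 (p58IPK) were at 0.33 and 0.43. Without replicate 4 Dnajc3 was at -0.22. Hyou1, the exchange factor GRP170, was at -0.28, and the disulfide-reducing co-chaperone Dnajc10 (ERdj5) at -0.67 (adjusted p 0.181). For both, the lowest value was OGTi replicate 1, with 1165 for Hyou1, where the rest of the group had 3712 to 5773, and 2290 for Dnajc10, where it had 7692 to 8948. Without replicate 1, Hyou1 was at 0.20 and Dnajc10 at -0.23 (adjusted p 0.393).

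**Figure D3:**
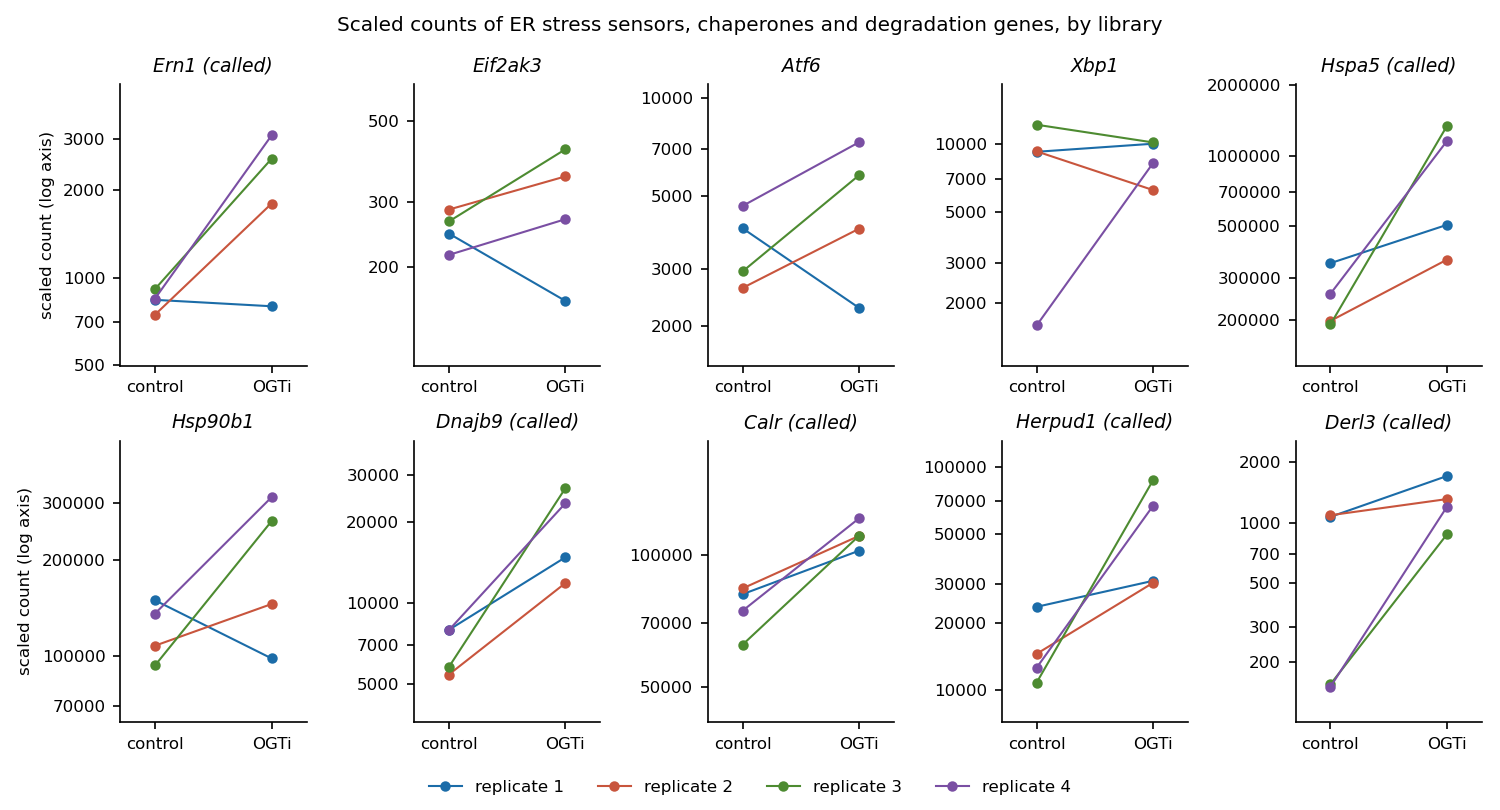
Scaled counts (log axis) of the 6 called genes and of Eif2ak3, Atf6, Xbp1 and Hsp90b1 in each library, with lines joining the control and OGTi cultures of a replicate. Hspa5, Dnajb9, Herpud1, Calr and Derl3 rise along all 4 lines, with the steepest lines in replicates 3 and 4, and Ern1 along 3.

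Of the lectin chaperones, which hold sugar-bearing proteins until they are folded, Calr was higher in OGTi. Calr encodes calreticulin, and its scaled counts were 81410, 83907, 62510 and 74665 in control and 102273, 110541, 110668 and 121255 in OGTi. In scaled counts the groups did not overlap and the values within each were close together. In TPM the groups overlapped, and pair 1 went from 2285 in control to 1988 in OGTi. The change was the smallest of the 6 calls, at 0.56 ± 0.17 (1.48-fold, adjusted p 0.0437). It was lost without replicate 2 (0.64, adjusted p 0.0732), replicate 3 (0.48, 0.200) or replicate 4 (0.53, 0.141). It was also lost without the pairing (adjusted p 0.0549), without control replicate 4 and OGTi replicate 1 (0.0546), with library totals (0.37, 0.123) and on log2(TPM + 1) (0.24, 0.299), the alternatives spanning 0.0163 to 0.299. Canx, the membrane-bound relative calnexin, was at -0.05, and Uggt1, which marks misfolded glycoproteins for another round, was at -0.24. Calr lies at chr8:85567946-85573667 on the minus strand.

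None of the 6 disulfide genes passed in edgeR. At an unadjusted p under 0.05, 2 were higher and 1 lower, against 14.3% and 17.5% of all genes tested. DESeq2 called 2 higher, against 11.9% of all genes. The oxidases Ero1a and Ero1b, which pass oxidising power to the disulfide isomerases, had the largest values (1.28, adjusted p 0.111, and 0.98, adjusted p 0.120). Their controls were spread, with 1072 for Ero1a and 237 for Ero1b in replicate 4 against 7510 to 10180 and 614 to 995 in the other controls. Without replicate 4 they were at 0.61 (adjusted p 0.210) and 0.53 (adjusted p 0.374). DESeq2 called both (adjusted p 0.0282 and 0.0479). The disulfide isomerases themselves lay on both sides of 0, with Pdia4 at 0.56, Pdia3 at 0.35, Pdia6 at 0.14 and Pdia5 at -0.61. Pdia4 reached 1.04 without replicate 1 (adjusted p 0.0150). Pdia5 was lower in all 4 pairs with no overlap (adjusted p 0.125). The prolyl isomerases Fkbp2 and Fkbp11 were at -0.15 and -0.52, the latter lower in all 4 pairs (adjusted p 0.135).

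Among the 10 ERAD genes, Herpud1 and Derl3 were higher (20%, against 8.13% of all genes tested). Of the 10, 9 lay above 0 with a median of 0.41, against 10023 of the 19963 genes tested and a median of 0.01. Herpud1, a membrane protein that gathers the ubiquitin ligase complex, had scaled counts of 23609, 14534, 10801 and 12598 in control and 30886, 30272, 87341 and 67059 in OGTi. In scaled counts the groups did not overlap, and OGTi replicates 3 and 4 were above all other libraries, with ratios within pairs of 1.31, 2.08, 8.09 and 5.32. In TPM the groups overlapped, and pair 1 went from 689 in control to 624 in OGTi. The log2 fold change of 1.72 ± 0.39 (3.29-fold, adjusted p 0.0136) was the largest of the 40 genes. Without replicate 4 it was 1.47 (adjusted p 0.0803), and on log2(TPM + 1) it was 1.39 (0.0677 and 0.0533 with a pseudocount of 0.1), with adjusted p between 2.5e-07 and 0.0803 in the alternatives. Herpud1 lies at chr8:95113022-95123141 on the plus strand.

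Derl3, a member of the derlin family that helps to move proteins out of the ER, had scaled counts of 1068, 1088, 156 and 151 in control and 1708, 1310, 874 and 1200 in OGTi. The controls fell into a high and a low pair of values, and the OGTi values of replicates 3 and 4 were close to the high controls, so the groups overlapped although every pair was higher. The paired fit gave 1.59 ± 0.45 (adjusted p 0.0337). The call rested on the pairing and on replicates 3 and 4. It was 1.05 without the pairing (adjusted p 0.268), 1.26 without replicate 3 (0.133), 1.12 without replicate 4 (0.135) and 0.58 (0.530) when control replicate 4 and OGTi replicate 1 were left out, an alternative chosen after seeing the data. It was also lost with the length trend removed (1.52, 0.0733) and on log2(TPM + 1) (1.21, 0.102). Derl3 lies at chr10:75729215-75731775 on the plus strand.

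The other derlins, Derl1 and Derl2, were higher in all 4 pairs without overlap but missed the threshold (0.68, adjusted p 0.0675, and 0.47, adjusted p 0.129). Edem2, one of the mannosidases that tag glycoproteins for disposal, behaved alike (0.49, adjusted p 0.112), while Edem1 was at 0.16 and Edem3 at -0.20. Sel1l and Syvn1, the core of the HRD1 ubiquitin ligase, were at 0.21 and 0.36, and the lectin Os9 at 0.18. Sel1l was at 5604 in OGTi replicate 1 and at 17691 to 24646 in the rest of the group, and was called higher without replicate 1 (0.78, adjusted p 0.0464). The 4 translocon genes, whose products admit new proteins to the ER, were all below 0, at -0.18 for Sec61a1, -0.26 for Sec61b, -0.56 for Ssr1 and -0.08 for Ssr2. Ssr1 was lower in all 4 pairs (adjusted p 0.0586) and was called lower by DESeq2 (0.0395), with library totals (0.0167) and on log2(TPM + 1) (0.0169).

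The change differed in size between pairs. The median log2 ratio over the 40 genes was -0.09 in pair 1, 0.17 in pair 2, 0.64 in pair 3 and 0.65 in pair 4, while the median over all genes tested was between -0.03 and 0.03. In pair 1, 18 of the 40 were higher and 22 lower, and in pair 3, 30 were higher and 10 lower. Pair 1 holds OGTi replicate 1 and pair 4 holds control replicate 4, both of which stood apart as given above, and pairs 2 and 3 hold neither. The part of these libraries in the spread was not tested beyond the fits without them.

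**Figure D4:**
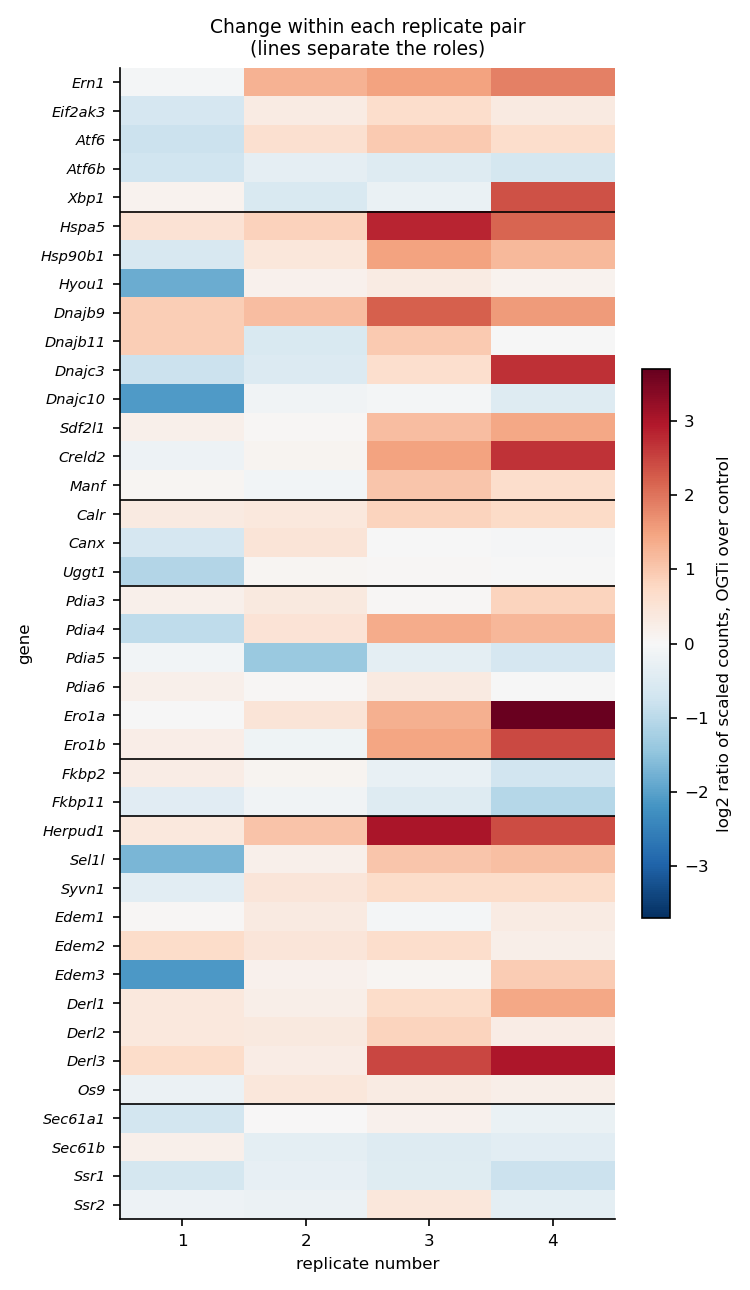
Log2 ratios of scaled counts, OGTi over control, for the 40 genes (rows, grouped by role) in replicates 1 to 4 (columns), with red for higher and blue for lower in OGTi. Replicate 1 holds most of the deep blue cells (Hyou1, Dnajc10, Sel1l and Edem3), and replicates 3 and 4 hold most of the deep red ones (Hspa5, Herpud1, Derl3 and Ero1a).

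Levels of different genes were compared in TPM, which allows for length. In control cultures Hspa5 led with 5170 ± 1464 TPM (SD, n = 4), followed by Hsp90b1 (2341 ± 470), Calr (2151 ± 238), Pdia6 (1694 ± 257), Pdia3 (1560 ± 531) and Manf (1235 ± 322). Hsp90b1 and Calr differed by less than their spread, as did Pdia6, Pdia3 and Manf in turn. In OGTi, Hspa5 was at 13961 ± 8040 TPM and Hsp90b1 at 3204 ± 1604. The sensors were low, with Ern1 at 7.42 ± 0.60 TPM in control and 15.1 ± 7.60 in OGTi. The TPM of the 40 genes summed to 21720 ± 3974 in control and 32202 ± 11348 in OGTi, and the ranges of 18973 to 27605 and 20992 to 43067 overlapped. Within pairs, the log2 ratio of the sums was -0.40, 0.27, 1.18 and 0.99, so the sum was lower in OGTi in pair 1. Hspa5 made up 20.5% to 26.3% of the sum in control and 28.8% to 51.2% in OGTi. Without it, the sums were 16550 ± 2625 and 18241 ± 3525 TPM, a difference smaller than the spread.

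The promoter elements and the changes were set side by side. Of the 12 genes with an ERSE or ERSE-II, 4 were called higher and 0 lower, with a median of 0.60, and of the 22 with a window and no match, 2 were called higher, with a median of 0.18. The latter count lies near the 8.13% called higher over all genes tested. Another 23 tested genes outside the 40 also held a match, of which 1 was called higher and 4 lower, against 8.13% and 10.2% of all genes tested, with a median of 0.03. These are counts of letters in a window and were not tested as sites.

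The genes around the 40 were read from 7 further lists. In the PERK-ATF4 arm, which follows the translation block set by PERK and related kinases, 8 of 16 genes (50%) were higher and 0 lower. Over all genes tested, 8.13% were higher and 10.2% lower. By DESeq2 and at an unadjusted p under 0.05, 0 were lower as well, against 12.4% and 17.5% of all genes. The median was 0.88, against 0.01 over all genes tested. Ddit3, which encodes the stress factor CHOP, was at 4727 to 8718 in control and 15486 to 43442 in OGTi, without overlap (2.27 ± 0.30, adjusted p 0.00109). Atf4, the transcription factor that drives this arm, was at 1.11 (adjusted p 0.00339), higher in all 4 pairs. Its groups overlapped, with 9375 in control replicate 4 and 7128 in OGTi replicate 2. Atf3 (3.06), Chac1 (2.49), Ppp1r15a (1.75), Slc7a11 (1.67) and Trib3 (1.64) were higher as well, and Nupr1 (0.91) was the remaining call. Ppp1r15a encodes GADD34, which lifts the translation block, and Slc7a11 a cystine transporter. The calls of Trib3 and Nupr1 were lost without replicate 3 (1.27, adjusted p 0.0568, and 0.86, 0.0611), and that of Trib3 also without replicate 4 (1.43, 0.0725). Both were also lost without control replicate 4 and OGTi replicate 1 (0.0536 and 0.0529). The amino acid synthesis genes Asns and Psat1 did not pass (0.55, adjusted p 0.170, and 0.06, adjusted p 0.908).

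Of the 7 genes of ATF6 processing and related factors, 0 were called higher (0 also by DESeq2 and at an unadjusted p under 0.05) and 3 lower, against 10.2% lower over all genes tested. The fitted values of 3 were above 0 and of 4 below, with a median of -0.57. Mbtps1, the protease that cuts ATF6 in the Golgi, was lower (-1.01, adjusted p 0.0314), as were Creb3l1 (-1.10) and Creb3l2 (-1.27), membrane transcription factors cut in the same way. Mbtps1 was lowest in OGTi replicate 1 and its call was lost without the pairing (-0.86, adjusted p 0.120), without replicate 2 (-1.13, 0.0619), replicate 3 (-1.15, 0.0599) or replicate 4 (-1.08, 0.0825). Without replicate 1 it was at -0.66 (adjusted p 0.0361), and without control replicate 4 and OGTi replicate 1 at -0.52, where the call was also lost (0.0806). That of Creb3l1 was lost without replicate 3 (adjusted p 0.0761) or replicate 4 (0.0583), and that of Creb3l2 in none of the 15 alternatives.

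Of the other folding genes, 2 of 22 were lower and 0 higher (3 higher at an unadjusted p under 0.05, and 2 by DESeq2), with a median of -0.03. Against 10.2% lower over all genes tested, and 14.3% higher at an unadjusted p under 0.05, these shares were near the background. The genes called lower were Fkbp10 (-1.15, adjusted p 0.00431) and Fkbp14 (-1.27, adjusted p 0.00533), prolyl isomerases that act on collagen, and both were called in all 15 alternatives. Of 17 other ERAD genes, 4 (23.5%) were higher and 0 lower, against 8.13% and 10.2% of all genes tested, with a median of 0.28. At an unadjusted p under 0.05, 1 was lower, against 17.5% of all genes, and by DESeq2 0 were, against 12.4%. The 4 called higher were Herpud2 (1.57), the relative of Herpud1, then Ubxn4 (0.90) and Nploc4 (0.72), which recruit or serve the extraction ATPase p97, and the mannosidase Man1a (0.87). Herpud2 was called in all alternatives, whereas Man1a and Nploc4 were lost without any of replicates 2 (0.86, adjusted p 0.0589, and 0.69, 0.109), 3 (0.91, 0.0997, and 0.69, 0.171) and 4 (0.90, 0.0685, and 0.70, 0.108). Both were also lost with library totals (adjusted p 0.0715 and 0.114) and on log2(TPM + 1) (0.165 and 0.218), and Man1a without the pairing (0.0665) and without control replicate 4 and OGTi replicate 1 (0.172). Ubxn4 was lost without replicates 3 (0.80, 0.0910) and 4 (0.84, 0.0619).

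Of 19 other translocon, signal recognition and signal peptidase genes, 1 was lower and 0 higher, against 10.2% and 8.13% of all genes tested. The median was 0.11. The gene called lower was the signal peptidase subunit Spcs3 (-1.46, adjusted p 0.0199). Its lowest value was in OGTi replicate 1, and without replicate 1 it was at -0.95 (adjusted p 0.0130). Its call was lost without replicate 4 (-1.54, adjusted p 0.0675). Of the 11 oligosaccharyltransferase genes, which attach sugars to new proteins, edgeR called 0. At an unadjusted p under 0.05, 2 were higher and 1 lower, against 14.3% and 17.5% of all genes tested. By DESeq2 2 were higher, against 11.9% of all genes. Of 19 genes of COPII vesicles and ER exit, 1 was higher and 2 lower, against a background of 8.13% and 10.2%, with a median of -0.19. The coat subunit Sec24d (-1.47, adjusted p 0.00899) and the cargo receptor Lman1 (-0.93, adjusted p 0.0106) were lower, and Mia2, which acts in loading of large cargo, was higher (0.97, adjusted p 0.0194). Sec24d was called in all 15 alternatives, at -1.06 without replicate 1 and -0.90 without control replicate 4 and OGTi replicate 1, Lman1 was lost without replicate 4 (-0.83, 0.0565), and Mia2 without replicate 3 (0.98, 0.0896) or replicate 4 (0.80, 0.0878), and with limma on log2(TPM + 1) (0.56, 0.114) or log2(TPM + 0.1) (0.64, 0.106).

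**Figure D5:**
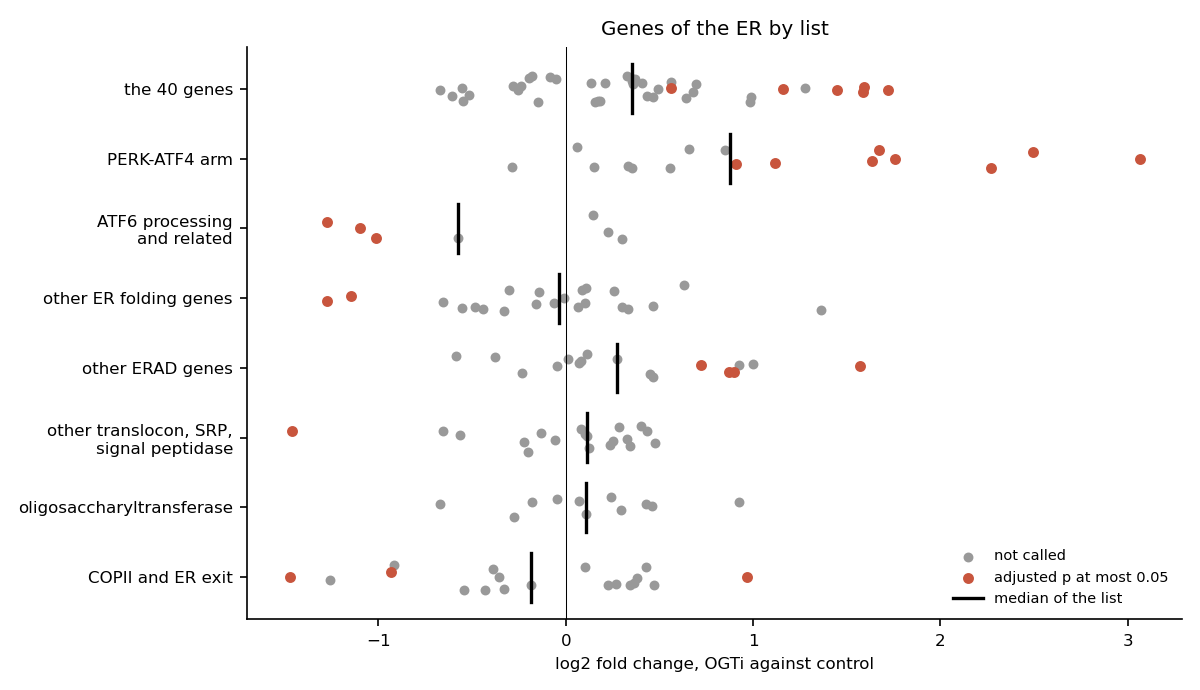
Log2 fold changes in OGTi against control of the 40 genes and of the genes in 7 further lists, one point per gene, with called genes in red and the median of each list as a black bar. The medians range from 0.88 in the PERK-ATF4 arm to -0.57 in the ATF6 processing list.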

How the data were processed

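RNA was measured in 8 libraries (4 control, 4 OGTi), grouped and numbered by their titles. The authors prepared libraries from polyadenylated RNA, aligned reads with Bowtie2 2.3.5.1 to mm39 and quantified them with RSEM 1.3.1, and DESeq2 1.36.0 is also named in the submitters' processing notes. The deposited tables give, for each gene, an expected count (estimated by RSEM, which can divide reads between genes), TPM and an effective length. The methods name GENCODE, whereas the transcript identifiers deposited are RefSeq ones. A deposited comparison table with the authors' fold changes, p-values and counts was not used, and 0 columns of per-sample values were left unused.

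Expected counts were rounded to whole numbers. In R 4.3.3 with edgeR 4.0.16, the 19963 genes with a total of at least 10 counts were scaled by TMM and fitted with glmQLFit and glmQLFTest, with the replicate number as a block. P-values were adjusted by Benjamini-Hochberg over all genes tested and called at 0.05. The standard error is the log2 fold change divided by the root of F. For scaled counts, each count was divided by its library's TMM-adjusted size and multiplied by the mean size. Overlap of groups and direction within pairs were read from scaled counts, and in TPM they can differ. The pairing comes from the study's methods. Deviations from group means of same-numbered libraries correlated across genes at 0.149, 0.202, 0.0835 and 0.289, and those of differently numbered libraries at -0.274 to 0.183. Control 2 with OGTi 1 (0.183) was above the matched value of OGTi 1, so these values alone do not show the pairing. The biological coefficient of variation was 0.342. Reads carry no molecular identifiers, so totals of 30068876 to 37372420 set counting error only. Replicate error is the spread between cultures.

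Alternatives were no block, DESeq2 1.42.0, other scalings and filters, limma 3.58.1 on log2(TPM + 1) and log2(TPM + 0.1), removal of a length trend, a stricter threshold and leaving out each pair. The 40 genes and the other lists were chosen with earlier results of these data known. Values in every library were given for called genes and for Hspa5, Hsp90b1, Xbp1, Atf6, Ern1 and Eif2ak3, and up to 6 called genes of largest change, with Atf4 and Ddit3, were named from each other list. Promoters came from a RefSeq table of build GRCm38.p6, and up to 6 called genes with a match were shown. Protein sequences were not used here.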

Additional observations from a re-analysis of the deposited data

Results flagged for a closer look

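Within each group of 4 libraries, a value far from the nearest other one was looked for in 122 groups of values, and 4 were found where chance gives about 1 in 20, or 6.1. Dnajb11 was at a scaled count of 12782 in control replicate 2, against 5814 to 6650 in the other controls. Manf was at 22879 in control replicate 1, against 13195 to 14362. Pdia6 was at 92698 in OGTi replicate 1, the rest of the group lying at 64873 to 69577. Lman1, of the ER exit list, was at 10547 in OGTi replicate 3, against 6734 to 7309. They fell in 4 different libraries.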

How the results depend on the processing

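With 6 of the 40 genes called (6 higher, 0 lower), DESeq2 called 12 (10 higher, 2 lower), no low-count filter 12 (all higher), and removal of the length trend with the replicate block 10 (1 lower). Over all genes these fits called 11.9%, 7.13% and 10.6% higher, against 8.13%. With library totals 3 were lower, and with limma 1 and 5 were higher and lower on log2(TPM + 1), and 2 and 5 on log2(TPM + 0.1). Over all genes these 3 fits called 14.6%, 17.3% and 17.4% lower, and the limma fits 5.99% and 6.19% higher. At an adjusted p of at most 0.01, 1 of the 40 and 1668 of all genes were called. Leaving out one pair gave 1 to 10 of the 40, all higher, with the fewest without replicate 4, and 1905 to 3124 of all genes, against 3666. Without the replicate block, 4 of the 40 were called (all higher), as against 6 in the paired fit, and Derl3 and Calr were lost. Leaving out control replicate 4 and OGTi replicate 1, chosen after seeing the data, gave 7 higher. The mean log2 ratio of summed TPM was 0.13 to 0.86 in its alternatives, against 0.51, with 0.82 without replicate 1, 0.29 without replicate 3 and 0.13 without Hspa5.

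Of 600 values of the 40 genes under 15 alternatives, 38 had the other sign, in 15 genes, none of them among the 6 called. With library totals these were Eif2ak3 (-0.022), Pdia6 (-0.058), Edem1 (-0.039) and Os9 (-0.015). On log2(TPM + 1) and log2(TPM + 0.1) they were Eif2ak3 (-0.095 and -0.16), Dnajb11 (-0.00583 and -0.00586), Pdia6 (-0.19 in both), Sel1l (-0.16 in both), Edem1 (-0.15 and -0.16) and Os9 (-0.14 and -0.15). With upper-quartile scaling they were Canx (0.072) and Ssr2 (0.043), and with the length trend removed Canx (0.22) and Edem3 (0.011). Without control replicate 4 and OGTi replicate 1 they were Xbp1 (-0.28), Hyou1 (0.36), Dnajc3 (-0.13), Canx (0.11), Uggt1 (0.037), Edem1 (-0.010), Edem3 (0.13) and Sec61a1 (0.013). With one pair left out, the values ranged from -0.22 to 0.72 for Xbp1, -0.49 to 0.20 for Hyou1, -0.22 to 0.91 for Dnajc3, -0.20 to 0.14 for Canx, -0.33 to 0.044 for Uggt1, -0.29 to 0.051 for Fkbp2, -0.12 to 0.78 for Sel1l, -0.59 to 0.38 for Edem3 and -0.25 to 0.022 for Ssr2. The cause was not tested. Each of the 40 genes had at least 157 counts in every library, and no alternative varied the depth.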
